A study of Mus musculus with 69 samples.

Results

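Dimethylation of lysine 79 of histone H3 (H3K79me2) was mapped in the nucleus accumbens of male mice exposed to early life stress (ELS) and of mice reared under Standard conditions, and the peaks at proximal and 3 kb promoters are described here. Each distinct peak of the 2 annotated lists was kept when one of its annotation lines named the Region ProximalPromoter or Promoter3k and none named Promoter1k. The rule held for 14724 of 106374 peaks (13.8%) in the ELS list and for 16064 of 117819 peaks (13.6%) in the Standard list. Together they are called flank peaks below. They divide into 1425 ELS and 1650 Standard peaks at proximal promoters, called proximal peaks, and 13299 ELS and 14414 Standard peaks called 3 kb peaks. The promoter lines of 3 kb peaks all named Promoter3k. Gene body lines were allowed, and 62.2% of the ELS and 64% of the Standard 3 kb peaks had one. The distance in the lists was found to run from the transcript start to the centre of the peak. ProximalPromoter therefore means a centre within 250 bp of a start, Promoter1k a centre beyond that and within 1 kb, and Promoter3k a centre beyond 1 kb and within 3 kb, in either direction.

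Chromatin from fixed tissue punches was immunoprecipitated with an antibody to H3K79me2, in 9 ELS and 9 Standard libraries beside 10 ELS and 9 Standard input libraries. One list was given per rearing condition, so the lists have no replicates and differences between them carry no test. RNA was sequenced from whole accumbens tissue in 4 groups of 8 male mouse libraries. These were ELS Dot1l knockdown, Standard Dot1l overexpression, ELS GFP and Standard GFP, where knockdown, overexpression and GFP (green fluorescent protein) are the labelled genotypes. The labels give no age, strain, vector, promoter or cell type for the constructs, and they do not say which libraries came from separate animals, so p-values measure the spread between these libraries. Total counts per RNA library lay between 314200 and 11117998. Standard GFP replicates 1, 4 and 5 and ELS Dot1l knockdown replicate 7 had under 1000000. Striatal RNA was present: Pde10a had 269 to 480.2 CPM (counts per 1000000 counts) in ELS GFP libraries and 318.9 to 1015 CPM in Standard GFP libraries. Microglial RNA was present as well: Cx3cr1 had 10.5 to 93.5 CPM in ELS GFP libraries and 14.6 to 259.2 CPM in Standard GFP libraries, while P2ry12 was at 0 in all 32 libraries. In whole tissue, fewer cells of a type and less RNA per cell cannot be told apart. Dot1l itself had a lowest, median and highest level of 28.9, 38.4 and 74.9 CPM in ELS Dot1l knockdown libraries, 25.2, 37.7 and 75 CPM in Standard Dot1l overexpression libraries, 15.4, 35 and 54.2 CPM in ELS GFP libraries and 10.6, 36.3 and 48.5 CPM in Standard GFP libraries. All 4 ranges overlapped, and the knockdown median was not below the ELS GFP median, so the targeted gene did not separate the libraries by their labels.

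H3K79me2 is placed by DOT1L, the only enzyme known to methylate this lysine in mammals. The enzyme acts on nucleosomes of transcribed genes together with factors of the elongation machinery, among them MLLT1, MLLT3, MLLT10, AFF1 and AFF4. The mark is known for lying over the first part of active genes, downstream of the start, and for falling off towards the end of the gene. The nucleus accumbens is the ventral part of the striatum, and most of its neurons are medium spiny neurons that carry either dopamine receptor D1 or D2.

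The promoters at the strongest flank peaks found in both lists show where such peaks lie: over the promoter, just downstream of it, or at a transcript start inside the gene. The 250 bases before the RefSeq start (GRCm38.p6) are given for 3 genes of proximal peaks (Safb, Blcap, Urgcp) and 3 genes of 3 kb peaks (Sbf1, Zbtb7a, Clptm1), which had the highest summed fold enrichment among overlapping pairs of the same class and gene with a promoter in the RefSeq table. All read in the direction of transcription. Capitals mark matches on either strand to the GC box GGGCGG and to the CCAAT box, and the box TATAAA, searched too, occurs in none of the 6.
Urgcp, chr11:5741177-5741426, minus strand: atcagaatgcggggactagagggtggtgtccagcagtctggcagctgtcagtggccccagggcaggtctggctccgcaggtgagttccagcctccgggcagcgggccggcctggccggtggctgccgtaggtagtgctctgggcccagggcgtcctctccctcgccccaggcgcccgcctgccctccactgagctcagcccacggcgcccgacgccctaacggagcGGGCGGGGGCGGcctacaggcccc
Blcap, chr2:157566362-157566611, minus strand: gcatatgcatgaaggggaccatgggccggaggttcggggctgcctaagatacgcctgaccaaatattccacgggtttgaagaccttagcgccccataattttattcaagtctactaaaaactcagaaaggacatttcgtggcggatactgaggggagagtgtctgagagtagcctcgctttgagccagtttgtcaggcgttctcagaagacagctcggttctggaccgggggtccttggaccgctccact
Safb, chr17:56584732-56584981, plus strand: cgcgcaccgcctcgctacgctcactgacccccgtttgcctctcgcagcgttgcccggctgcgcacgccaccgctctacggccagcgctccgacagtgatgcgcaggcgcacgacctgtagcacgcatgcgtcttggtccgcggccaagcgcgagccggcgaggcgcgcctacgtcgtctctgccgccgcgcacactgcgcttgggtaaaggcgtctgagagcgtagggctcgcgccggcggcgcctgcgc
Sbf1, chr15:89315312-89315561, minus strand: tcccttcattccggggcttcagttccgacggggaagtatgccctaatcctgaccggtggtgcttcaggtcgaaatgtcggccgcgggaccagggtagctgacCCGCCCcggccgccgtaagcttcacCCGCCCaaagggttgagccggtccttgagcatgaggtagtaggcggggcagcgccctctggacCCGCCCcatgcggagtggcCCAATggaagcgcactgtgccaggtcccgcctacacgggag
Zbtb7a, chr10:81136021-81136270, plus strand: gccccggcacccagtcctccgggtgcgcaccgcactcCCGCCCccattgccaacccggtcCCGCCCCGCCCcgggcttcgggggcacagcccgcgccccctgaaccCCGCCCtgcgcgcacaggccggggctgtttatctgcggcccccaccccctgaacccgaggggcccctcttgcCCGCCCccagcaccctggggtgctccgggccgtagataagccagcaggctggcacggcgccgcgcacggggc
Clptm1, chr7:19665031-19665280, minus strand: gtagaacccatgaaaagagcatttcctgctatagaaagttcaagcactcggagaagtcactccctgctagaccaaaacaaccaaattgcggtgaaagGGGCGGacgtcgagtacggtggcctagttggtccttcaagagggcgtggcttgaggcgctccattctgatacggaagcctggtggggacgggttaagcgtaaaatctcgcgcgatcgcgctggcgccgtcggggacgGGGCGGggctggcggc
At Urgcp all 250 bases lay under the peak of both lists. At the other genes 0 of the 250 bases lay under either peak of the pair. At Sbf1, which is on the minus strand, the ELS peak ended at base 89315253 and the Standard peak at base 89315262, before the window that starts at base 89315312. At Safb and Zbtb7a the RefSeq start lay upstream of the start used by the annotation, at −3858 and −1682 bp from it, so that their peaks belong to starts further inside the gene. The windows held 42 CG dinucleotides at Safb, 26 at Zbtb7a, 22 at Clptm1, 21 at Sbf1, 19 at Urgcp and 12 at Blcap.

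Genes with a flank peak shared CG-rich promoters, which the rule did not use. Promoters were matched by symbol for 5009 of 8302 symbols in the ELS list and 5412 of 8965 in the Standard list. The median window of 250 bases held 18 CG dinucleotides in either list, against 5 over all 27025 genes with a promoter in the RefSeq table. GGGCGG, on either strand, occurred in 61.4% of the ELS and 60.2% of the Standard windows, against 32.7% of all windows. TATAAA occurred in 5.17% and 5.3%, against 12.9% of all. CCAAT occurred in 35.6% and 35.8%, against 34.2% of all. Genes with a Promoter1k peak and no flank peak had a median of 17 CG dinucleotides in both lists, and genes with a peak only in the body had 17 in the ELS and 16 in the Standard list. These medians lie close to that of flank genes, while windows of genes without any peak held a median of 4. A match is a match of letters in this window and was not tested for binding.

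Flank peaks lay mainly downstream of the start. The centre was downstream of the nearest start for 62.8% of ELS and 61.8% of Standard flank peaks. In windows of 250 bp, the fullest flank window was 1000 to 1250 bp downstream, with 1182 ELS and 1347 Standard peaks. The counts declined from there to 911 ELS and 890 Standard peaks at 2750 to 3000 bp downstream. Upstream, the window of 2750 to 3000 bp held 537 ELS and 603 Standard peaks. With the excluded Promoter1k peaks added, the count was highest at 250 to 500 bp downstream, with 1718 ELS and 1878 Standard peaks. Proximal flank peaks covered the start itself in 79.1% of ELS and 79.2% of Standard cases. Of the 3 kb peaks, 2.82% in the ELS and 5.08% in the Standard list reached back over the start.

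**Figure D1:**
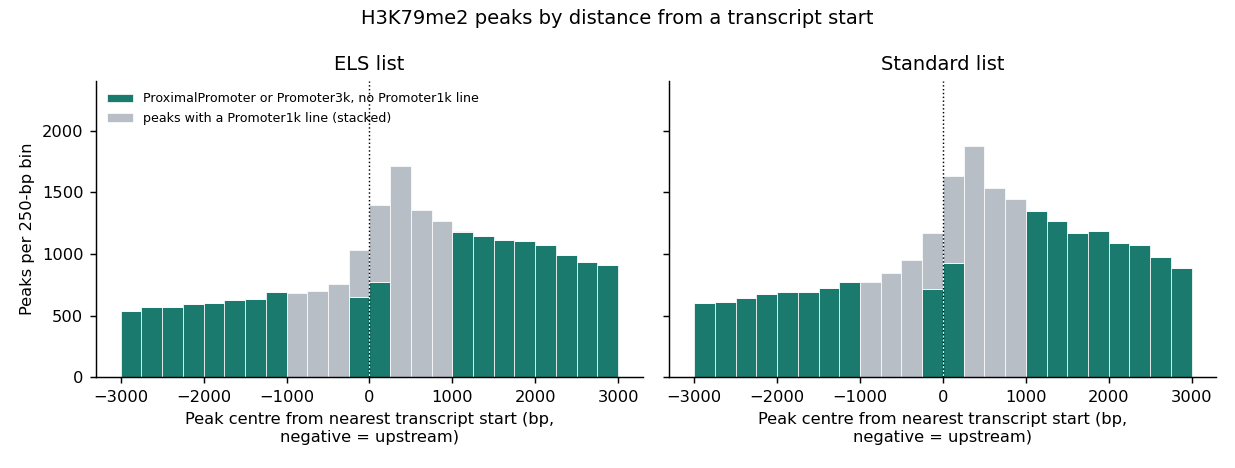
Number of peaks per 250-bp bin (y axis) by the distance of the peak centre from the nearest transcript start (x axis, bp), for the ELS list on the left and the Standard list on the right. Green bars are flank peaks and grey bars, stacked on them, are peaks with a Promoter1k line; the green bars stand at 1182 ELS and 1347 Standard peaks at 1000 to 1250 bp downstream, above every upstream bar.

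Many upstream flank peaks lay in another transcript or gene. A gene body line stood beside the promoter line for 64.0% of ELS and 65.8% of Standard flank peaks, and for 87.7% and 86.9% of those upstream. Among flank peaks nearest to a protein-coding start and without any body line, 4505 of 4975 (90.6%) in the ELS list and 4550 of 5129 (88.7%) in the Standard list lay downstream. These shares follow in part from the choice of peaks. Peaks inside a gene near its start can lack a body line, as at Kctd3, 2717 bp downstream in the ELS list. Of flank peaks not upstream, 49.9% of ELS and 52.7% of Standard ones had a body line, so the choice removed a larger share of upstream peaks. The ribosomal protein genes Rpl15, Rpl7a and Rpl3, which encode parts of the large ribosomal subunit, illustrate the upstream kind. Their strongest flank peaks were centred at −2344, −2144 and −2401 bp from the start in the ELS list and at −2763, −2374 and −2414 bp in the Standard list. The nearest start belonged to a protein-coding gene for 79.6% of ELS and 79.9% of Standard flank peaks, and to the lists' class misc for 17.3% and 17.1%.

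Proximal peaks were mostly at starts inside genes. For 949 ELS and 1092 Standard proximal peaks the nearest start was protein-coding and its gene could be placed on RefSeq. The start used by the annotation lay over 3 kb inside the RefSeq gene for 76.0% of the ELS and 74.5% of the Standard peaks. It lay within 500 bp of the RefSeq start for 10.0% of the ELS and 11.8% of the Standard peaks. Among the 3 kb peaks, 38.6% of 10341 ELS and 35.9% of 11212 Standard peaks belonged to a start within 500 bp of the RefSeq start, and 48.9% and 52.2% to a start over 3 kb inside the gene. Among Promoter1k peaks, 41.8% of 5778 ELS and 39.8% of 6587 Standard peaks belonged to a start within 500 bp of the RefSeq start. Brd1, a scaffold of histone acetyltransferase complexes, is an example: its 4412 bp ELS peak at chr15:88728535-88732947 covered a start of Brd1 that lies in the Brd1 body.

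Flank peaks had a slightly higher median width and fold than the rest of their list. Median width was 515 bp in the ELS and 567 bp in the Standard list, against 472 and 505 bp for the other peaks of the same list. The interquartile range was 304 to 1086 bp in the ELS and 313 to 1330 bp in the Standard list. Flank peaks of 1 kb or more made up 27.4% of the ELS and 31.9% of the Standard flank peaks, against 22.5% and 26.7% of the other peaks. Those of 5 kb or more made up 1.26% of the ELS and 2.53% of the Standard flank peaks, against 1.61% and 3.3% of the other peaks. The authors' fold enrichment had a median of 1.95 in the ELS and 1.99 in the Standard flank peaks, against 1.92 and 1.96 in the other peaks. Promoter1k peaks had the same median folds as flank peaks, and proximal peaks alone had 1.92 and 1.96. Folds of flank peaks ran up to 3.52 in the ELS and 3.83 in the Standard list, against 3.82 and 6.37 in the other peaks. Proximal peaks were narrower than 3 kb peaks, with medians of 436 against 526 bp in the ELS list and 459 against 580 bp in the Standard list. Promoter1k peaks had medians of 470 bp and 492 bp. Wider peaks had higher folds: Spearman's rho across flank peaks was 0.706 in the ELS and 0.753 in the Standard list, given as a description across peaks of the same libraries. ELS flank peaks of at most 304 bp had a median fold of 1.8, and those of 1087 bp or more had 2.32. Standard flank peaks of at most 313 bp had 1.79, and those of 1331 bp or more had 2.5. These widest peaks covered a start in 17.3% of ELS and 25.7% of Standard cases, and the narrowest in 5.89% and 5.87%.

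The 3 kb limit cut through a continuous set of peaks. In the last 100 bp inside it, downstream of the start, 343 ELS peaks had a median width of 569 bp and a median fold of 1.97, and 337 Standard peaks had 643 bp and 2.01. In the first 100 bp outside, 299 ELS peaks had 575 bp and 1.99, and 364 Standard peaks had 613.5 bp and 2.01. Another peak of the same list lay within 1 kb of 83.7% of ELS and 85.7% of Standard flank peaks, with median gaps of 315 and 287 bp. The other peaks had such a neighbour in 82.3% and 84.6% of cases. At most 18 ELS and 23 Standard flank peaks named the same gene.

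Among the strongest 3 kb peaks, Sbf1, which encodes the myotubularin-related pseudophosphatase MTMR5, had one of the 5 highest folds of both lists, with 3538 bp and a fold of 3.41 in the ELS list and 3560 bp and 3.73 in the Standard list. Kctd3 led the ELS 3 kb peaks with a fold of 3.52 over 5240 bp at chr1:189002491-189007731. Sppl2b, an intramembrane protease, followed with 3.43, then after Sbf1 the nuclear transport factor gene Ranbp3 with 3.34 and Rprd2, whose product binds RNA polymerase II, with 3.31. The ELS peaks of Kctd3, Sppl2b and Ranbp3 were 5240, 5094 and 1214 bp wide, and the Standard peaks that overlap them best were 6342, 7709 and 13025 bp wide. Those Standard peaks were classed as gene body only, at folds of 3.54, 4.02 and 3.46.

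Dot1l, the gene of the enzyme itself, carried one of the strongest flank peaks of the Standard list. At its start the ELS list had a peak at chr10:80755296-80757401 of 2105 bp and a fold of 3.08, classed Promoter1k, and the Standard list had a flank peak at chr10:80755266-80759768 of 4502 bp and a fold of 3.8. Both lists had 5 flank peaks at Dot1l. The strongest ELS one, at a start inside the gene, was 2511 bp wide with a fold of 2.09. The highest fold among Standard 3 kb peaks lay near the misc transcript Gm12987 inside Kdm1a, the gene of a histone demethylase. The Standard peak there had 11365 bp with 3.83, and the best overlapping ELS peak 7858 bp with 3.24. Zbtb7a, a zinc finger repressor gene, had 3445 bp with 3.15 in the ELS list and 4405 bp with 3.71 in the Standard list. Clptm1, a membrane protein gene, had 2419 bp with 3.15 in the ELS list and 2451 bp with 3.71 in the Standard list.

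Among proximal peaks, the ELS list was led by Adat3, a subunit of a tRNA deaminase, and by Brd1, both with a fold of 2.97. The Standard list was led by Blcap, with 364 bp and a fold of 2.73 in the ELS list and 398 bp and a fold of 3.51 in the Standard list. Safb, which encodes a nuclear matrix protein, had 2719 bp with 2.83 in the ELS list and 2732 bp with 3.44 in the Standard list. Vti1b, a SNARE protein gene, had 498 bp with 1.9 in the ELS list and 604 bp with 3.43 in the Standard list. The widest flank peak of the ELS list covered 17831 bp at Arl8b, a lysosomal GTPase gene, and its Standard partner covered 17881 bp. The widest of the Standard list lay in Kansl1 over the start of the miRNA gene AL593843.1, where the best overlapping ELS peak covered 18239 bp and the Standard peak 26911 bp. At Yy1, a transcription factor gene, the Standard peak covered 20102 bp. The best overlapping ELS peak, classed as gene body only, covered 5243 bp, and further ELS peaks under the Standard peak were not counted.

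Most ELS flank peaks overlapped the Standard list, and fewer Standard flank peaks overlapped the ELS list. With 1 bp as the minimum overlap, 13599 of 14724 ELS flank peaks (92.4%, 95% Clopper-Pearson interval 91.9 to 92.8%) met a Standard peak. In the other direction 10449 of 16064 (65.0%, 64.3 to 65.8%) met an ELS peak. For the other peaks the shares were 90.5% and 62.2%. The intervals cover counting only. At 50% reciprocal overlap the shares were 42.5% of ELS and 39.0% of Standard flank peaks. Peaks without a partner were short and weak: the 1125 in the ELS list had a median of 255 bp and a fold of 1.76, against 564 bp and 1.97 for those with a partner. The 5615 in the Standard list had 306 bp and 1.82, against 953 bp and 2.16.

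The class of a peak often changed with its extent. Of the ELS proximal peaks, 45.3% met a Standard proximal peak as their best overlap and 33.9% a Promoter1k peak. Of the Standard proximal peaks, 37.3% met an ELS proximal peak and 22.7% a Promoter1k peak. Among the 3 kb peaks, 72.9% of the ELS peaks met a Standard 3 kb peak and 11.6% a gene body peak, and 57.1% of the Standard peaks met an ELS 3 kb peak and 3.87% a gene body peak. In 8556 pairs of flank peaks that were each other's best overlap, the ELS peak was the narrower in 6802 (79.5%). The median ratio of ELS to Standard width was 0.766, with median widths of 598 bp in the ELS and 919 bp in the Standard list. Over all 69883 pairs of the lists the ELS peak was narrower in 79.2%, with a median ratio of 0.718, close to the values at promoter flanks. More than a single ELS peak lay over 17.3% of the Standard flank peaks. More than a single Standard peak lay over 4.84% of the ELS flank peaks. A pair holds only the best overlap, so its widths do not tell narrower ELS peaks from ELS peaks called in pieces. The part of sequencing depth and of the pooling of libraries in these differences was not tested.

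**Figure D2:**
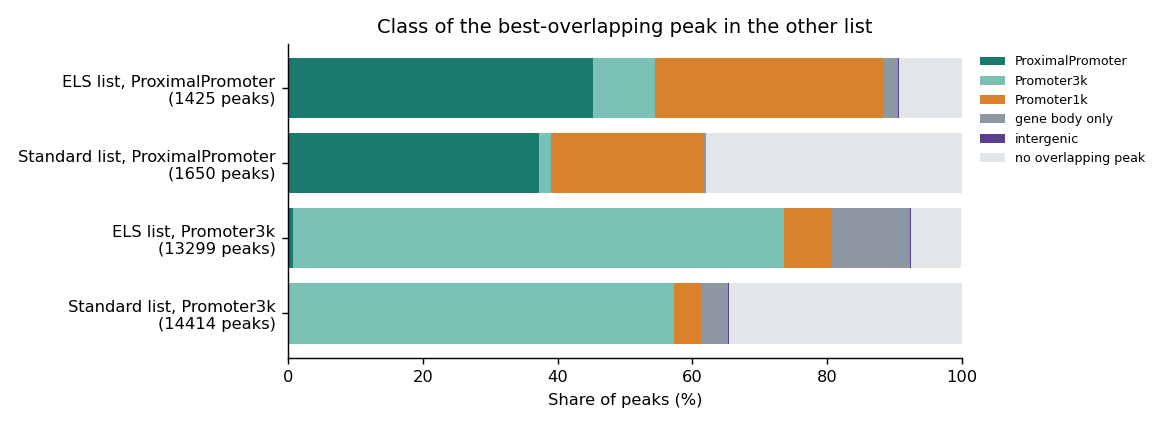
Share of flank peaks (x axis, %) by the class of the peak that overlaps them best in the other list, for proximal and 3 kb peaks of each list (bars, ELS above Standard). The share with no overlapping peak is 9.33% and 7.46% in the ELS bars and 38.0% and 34.6% in the Standard bars, and the Promoter1k share is 33.9% for ELS and 22.7% for Standard proximal peaks.

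Flank peaks named 8315 genes in the ELS list and 8976 in the Standard list, 10005 in either. Both lists named 7286 of them, which is 87.6% of the ELS and 81.2% of the Standard genes. A Promoter1k peak stood at 53.1% of the ELS and 53.4% of the Standard genes as well. The X chromosome held 1 ELS and 6 Standard flank peaks, and the Y chromosome 0 in each. The other peaks of the lists were not counted by chromosome, so these counts do not set flank peaks apart from the rest. Of the protein-coding genes tested for RNA, 3.32% were on the X chromosome.

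Of the 20871 protein-coding genes, 28.2% had a flank peak in the ELS list and 30.4% in the Standard list, and the counts of the gene lists below stand beside these shares. The shares include many genes with little RNA. Of 14016 genes of any type tested for RNA, 5678 had a flank peak in the ELS and 6120 in the Standard list, a larger share. All 20 elongation genes and all 31 proteasome genes were tested, so 28.2% and 30.4% are a low background for such lists. Of 20 genes of H3K79 methylation and elongation, 15 had a flank peak in the ELS and 15 in the Standard list, 14 of them in both. The elongation factor gene Supt5 had 4267 bp with a fold of 2.83 in the ELS list and 4970 bp with 2.93 in the Standard list. Aff4, the scaffold of the super elongation complex, had 9561 bp with 2.48 in the ELS list and 10436 bp with 2.98 in the Standard list. Mllt1, a DOT1L partner, had 4894 bp with 3.66 in the Standard list. Ell and Ccnt2, of the same machinery, had folds of 2.66 and 2.5 in the ELS list.

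Proteasome genes had flank peaks at 20 of 31 in either list, and 24 in at least one. Psma5, of the core particle, had 1695 bp with a fold of 2.78 in the ELS list and 1829 bp with 3.2 in the Standard list. Psmb2 and Psma6 reached 3.42 in the Standard list. Nuclear genes of the respiratory chain had them at 17 of 26 in the ELS and 14 of 26 in the Standard list. Ndufa9, of complex I, had 2012 bp with 2.78 in the ELS list and 2167 bp with 3.08 in the Standard list. Ribosomal protein genes had flank peaks at 8 of 44 in the ELS and 11 of 44 in the Standard list, and a Promoter1k peak without a flank peak at 14 and 20.

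Of 16 genes listed as general markers of medium spiny neurons, 11 had a flank peak in each list and 13 in at least one. Ppp1r2 and Itpr1 are among these, and how specific each listed gene is to these neurons was not tested. Gng7, a G protein subunit of striatal neurons, had 1430 bp with 2.16 in the ELS list and 1549 bp, at another start, with 2.54 in the Standard list. Adcy5, the main striatal adenylyl cyclase, had 2.64 in the Standard list. Ppp1r2 had 2888 bp with 2.27 in the ELS list and 6133 bp with 2.47 in the Standard list. Pde10a, the striatal phosphodiesterase, had 955 bp with 2.16 in the ELS list. Synaptic scaffold and release genes had flank peaks at 20 of 30 in the ELS and 21 of 30 in the Standard list. The postsynaptic scaffold gene Shank3 had 1060 bp with 2.34 in the ELS list and 2242 bp with 2.4 in the Standard list.

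Markers of D2-type spiny neurons had few flank peaks. D2-type markers had them at 0 of 10 in the ELS list and 1 of 10 in the Standard list, a 365 bp peak at Sp9 with a fold of 1.75. Astrocyte markers had 0 of 12, oligodendrocyte precursor markers 0 of 8, microglia markers 0 of 12 and endothelial and pericyte markers 0 of 10 in either list. Myelin genes had 1 of 14 in each, at Mbp, where the ELS peak was 224 bp and the Standard peak 311 bp. Most of these markers had no peak of any class, so the lack is not particular to flank peaks. No peak at all stood at 10 of 12 astrocyte, 10 of 12 microglia, 10 of 10 endothelial and pericyte and 12 of 14 myelin genes in each list. The same held for 8 of 10 D2-type and 7 of 8 precursor markers in the ELS list, and for 7 of 10 and 8 of 8 in the Standard list. Astrocyte RNA was in the tissue: summed over 9 tested astrocyte markers, the ELS GFP libraries had 1187 to 2806 CPM and the Standard GFP libraries 1811 to 3229 CPM. The endothelial marker Cldn5 was low, with medians of 0.749 CPM in ELS GFP and 1.48 CPM in Standard GFP libraries. Immediate early genes had flank peaks at 1 of 16 in the ELS list, at Arc, and 3 of 16 in the Standard list, at Arc, Egr2 and Egr3. Olfactory receptors had 2 of 1405 in each list, both pseudogenes.

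**Figure D3:**
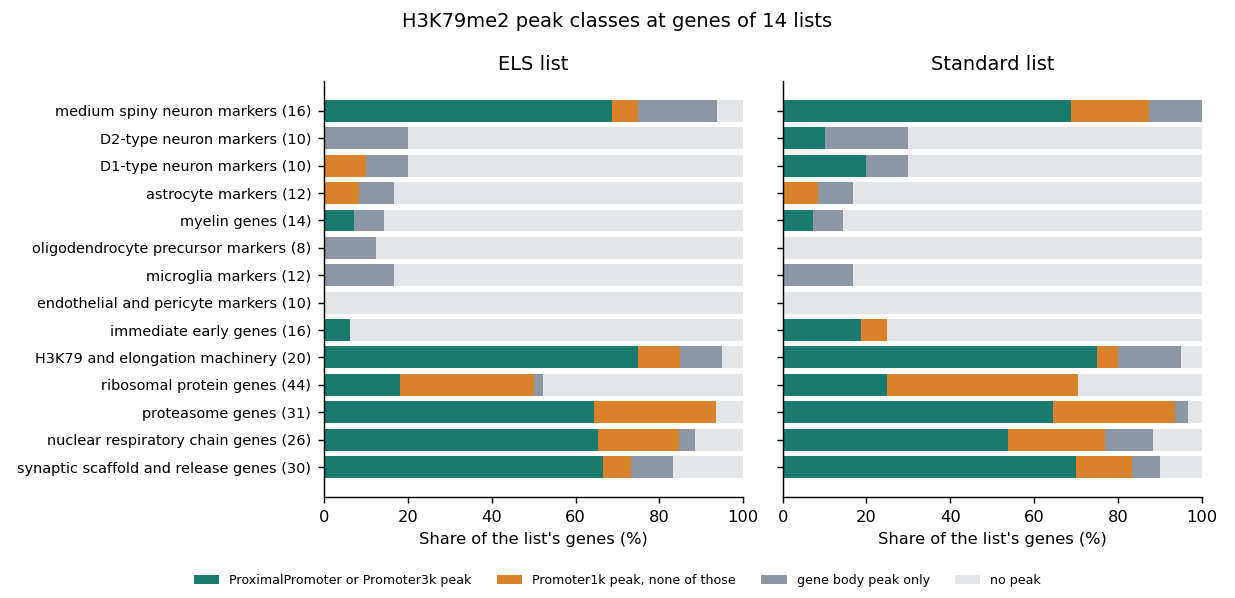
Share of the genes of each list (x axis, %; the number of genes stands in brackets) whose highest-ranking peak is a flank peak, a Promoter1k peak, a gene body peak or none, for the ELS list on the left and the Standard list on the right. Flank peaks reach 15 of 20 elongation genes and 20 of 31 proteasome genes in both panels and 0 of 12 astrocyte markers.

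Most genes with a flank peak had RNA above the filter on low counts. Of the 10005 genes, 9980 were in the count table and 6681 (66.8%) passed it. The others include many misc transcripts. RNA levels were compared among protein-coding genes per kb of genomic span, since exon lengths were not at hand, and the scale thus favours short genes and genes with short introns. With the Standard list, the 3617 genes with both a flank and a Promoter1k peak had library medians of 0.451 to 0.485 CPM per kb in ELS GFP and 0.326 to 0.505 CPM per kb in Standard GFP libraries. The 2735 genes with a flank peak and no Promoter1k peak had 0.372 to 0.407 in ELS GFP and 0.229 to 0.410 CPM per kb in Standard GFP libraries. The 1136 genes with a Promoter1k peak only had 0.420 to 0.495 in ELS GFP and 0.240 to 0.489 CPM per kb in Standard GFP libraries. The 981 genes with a body peak only had 0.249 to 0.289 in ELS GFP and 0.221 to 0.305 CPM per kb in Standard GFP libraries. The 12402 genes without a peak had at most 0.0253 CPM per kb in ELS GFP and 0.00925 CPM per kb in Standard GFP libraries.

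The order of the classes held per kb and not per gene. In the ELS GFP library ranges the genes with both kinds of peak lay above those with a flank peak alone, and these above genes with a body peak alone, with no overlap of the ranges. The classes with a Promoter1k peak only and with both kinds overlapped. In the Standard GFP libraries the ranges of all classes with a peak overlapped their neighbours in this order. The lowest value of each class with a peak there came from Standard GFP replicate 5, a library of 545917 counts. In CPM without division by length, genes with a body peak only had the highest median, 22.9 CPM as mean over Standard GFP libraries, beside 20.1 CPM for genes with both kinds, 14.4 CPM for a flank peak only and 9.63 CPM for a Promoter1k peak only. Their median spans were 60.3, 33.2, 29.1 and 16 kb, in the same order. The shares that passed the filter were 93% with both kinds, 90.6% with a flank peak only, 88.4% with a Promoter1k peak only, 90.6% with a body peak only and 38.2% without a peak.

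**Figure D4:**
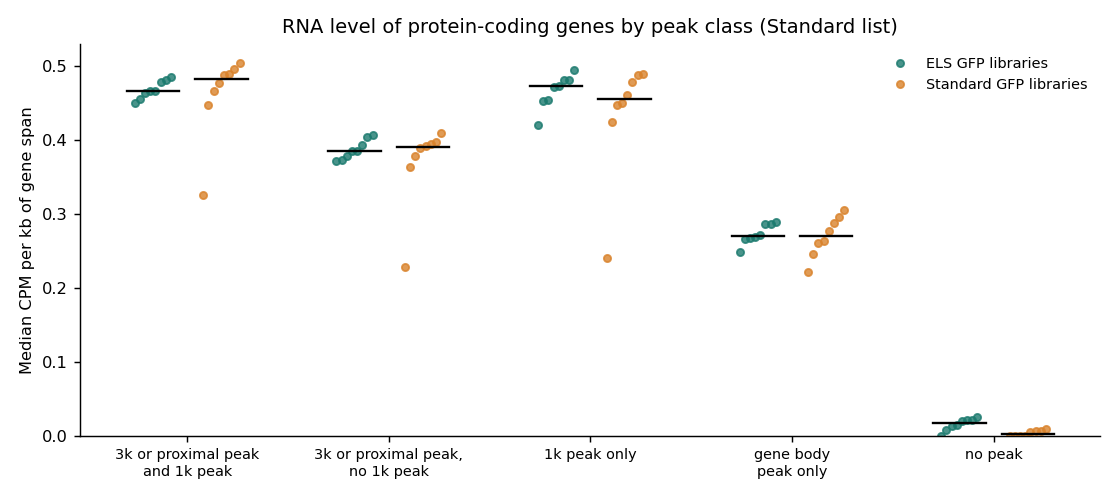
Median RNA level in CPM per kb of genomic span (y axis) of protein-coding genes in 5 peak classes of the Standard list (x axis), with 1 point per library and a bar at the median of 8 libraries, ELS GFP left of Standard GFP. Genes with a flank peak and no Promoter1k peak lie at 0.372 to 0.407 CPM per kb in ELS GFP libraries. Their lowest Standard GFP point, from replicate 5 at 0.229 CPM per kb, is below all their ELS GFP points.

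Level and peak strength went together weakly. In the ELS list, genes whose highest flank fold was at most 1.9 had a median of 0.412 CPM per kb in ELS GFP libraries, and genes at 2.37 or more had 0.573. In the Standard list, genes at most at 1.96 had 0.434 CPM per kb in Standard GFP libraries, and genes at 2.57 or more had 0.588. Spearman's rho across genes was 0.132 over 5896 ELS genes and 0.119 over 6352 Standard genes, a description across genes that share the libraries. By width, ELS genes at most at 477 bp had 0.413 CPM per kb and those of 1969 bp or more had 0.566, and Standard genes at most at 530 bp had 0.432 and those of 2506 bp or more 0.574. Genes with the highest folds were also longer, with median spans of 37.3 kb in the ELS and 36.2 kb in the Standard list, against 27 and 23.7 kb for those with the lowest.

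In ELS GFP against Standard GFP, no gene with a flank peak passed the test. With edgeR's quasi-likelihood test and Benjamini-Hochberg adjustment at 0.05, the count was 0 of 6681 flank genes and 0 of 14016 genes tested, a background of 0%. At an unadjusted p under 0.05, 580 flank genes were lower in ELS GFP (8.68%, against a background of 7.73% of all tested genes) and 204 were higher (3.05%, against 4%). DESeq2 called 34 flank genes (0.535%, against a background of 0.702%). These shares lie near the background. Without the 4 libraries under 1000000 counts edgeR called 1 of 6797 flank genes (0.0147%), against a background of 7 of 15149 genes (0.0462%). The median log2 fold change of flank genes was −0.058, against −0.013 over all tested genes, and 43.3% were higher in ELS GFP, against 48.8% of all. Genes named in both lists had a median of −0.064, genes of the ELS list alone −0.013 and genes of the Standard list alone −0.058. The 3019 tested genes with a Standard flank peak that met no ELS peak had −0.076, and the 822 with an ELS flank peak that met no Standard peak had −0.074. Among genes at 28.3 CPM or more the medians were −0.11 for flank genes and −0.094 for other genes, and among those at most at 3.98 CPM they were 0.081 and 0.23, so the medians moved with the level in both sets.

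The flank genes with the smallest p-values in this comparison often rested on single libraries. Timm17a, a subunit of the mitochondrial import channel, had 9.44, 11 and 404.9 CPM as lowest, median and highest level in ELS GFP libraries, against 3.52, 8.7 and 14.9 CPM in Standard GFP libraries. Its highest value came from ELS GFP replicate 2, and the groups overlapped. Its log2 fold change was 2.70 ± 0.63 (SE; edgeR adjusted p = 0.12), and 0.49 without that library. Rrs1, a ribosome assembly factor gene, had 1.35, 4.33 and 94.3 CPM in ELS GFP libraries, against 0, 2.33 and 3.42 CPM in Standard GFP libraries. The same library gave its highest value. The log2 fold change was 2.70 ± 0.71 (SE; edgeR adjusted p = 0.12, DESeq2 adjusted p = 0.022) with that library and 1.03 without it.

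Pdik1l, a kinase gene, had 0, 2.68 and 6.57 CPM in ELS GFP libraries, against 0.614, 6.92 and 114.8 CPM in Standard GFP libraries. All 8 ELS GFP libraries lay below the Standard GFP median, and the ranges overlapped. Its log2 fold change was −3.21 ± 0.68 (SE; edgeR adjusted p = 0.12, DESeq2 adjusted p = 0.000896), and −2.21 without Standard GFP replicate 6, which was the highest. Standard GFP replicate 5, which stayed in that fit, had 72.2 CPM of Pdik1l. The remaining Standard GFP libraries had 0.614 to 12 CPM. Nifk, a nucleolar protein gene, had 1.1, 5.25 and 9.5 CPM in ELS GFP libraries, against 4.74, 8.26 and 148.2 CPM in Standard GFP libraries. The top value was that of Standard GFP replicate 1, 7 of 8 ELS GFP libraries lay below the Standard GFP median, and the log2 fold change was −2.95 ± 0.63 (SE; edgeR adjusted p = 0.12, DESeq2 adjusted p = 0.000896), and −2.31 without it. Nifk was high in 3 Standard GFP libraries, replicates 1, 5 and 6, at 148.2, 47.6 and 109.1 CPM, and the other 5, at 4.74 to 8.28 CPM, lay within the ELS GFP range. Tet2, which oxidises methylated cytosine in DNA, had 32.9, 52.9 and 67.2 CPM in ELS GFP libraries, against 58.4, 74 and 219.2 CPM in Standard GFP libraries. Every ELS GFP library lay below the Standard GFP median, with overlap of the ranges, and the log2 fold change was −1.04 ± 0.24 (SE; edgeR adjusted p = 0.12, DESeq2 adjusted p = 0.0178). The 3 Standard GFP libraries under 1000000 counts had 158.5 to 219.2 CPM and the other 5 had 58.4 to 81.2 CPM. Without the libraries under 1000000 counts the log2 fold change of Tet2 was −0.32 ± 0.19 (SE; edgeR adjusted p = 0.615). At Tet2 a 1819 bp Standard flank peak with a fold of 2.54 at chr3:133541610-133543429 faced 3 ELS flank peaks of 265, 834 and 273 bp.

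Genes of the strongest flank peaks gave no call. Sbf1 had 22.1, 31.2 and 68.4 CPM in ELS GFP libraries, against 24.8, 40.5 and 156.6 CPM in Standard GFP libraries, a log2 fold change of −0.60 ± 0.29 (SE; edgeR adjusted p = 0.397). Without Standard GFP replicate 6, its top library, the value was −0.10. Safb had 39.7, 48.9 and 182.1 CPM in ELS GFP libraries, against 44, 74.6 and 509.3 CPM in Standard GFP libraries, a log2 fold change of −1.01 (SE 0.38; edgeR adjusted p = 0.244) that was −0.25 without the same library and −1.40 without ELS GFP replicate 2, the highest of its group. Mllt1 had 11.9, 14.9 and 24.5 CPM in ELS GFP libraries, against 4.14, 19.4 and 58.1 CPM in Standard GFP libraries, a log2 fold change of −0.53 ± 0.28 (SE; edgeR adjusted p = 0.461). Supt5 had 31.1, 40 and 51.6 CPM in ELS GFP libraries, against 15.9, 27.9 and 45.3 CPM in Standard GFP libraries. All 8 ELS GFP libraries lay above the Standard GFP median of Supt5, the ranges overlapped, and the log2 fold change was 0.51 ± 0.21 (SE; edgeR adjusted p = 0.3). The 3 Standard GFP libraries under 1000000 counts had 15.9 to 26.9 CPM of Supt5 and the other 5 had 18.1 to 45.3 CPM. Without the libraries under 1000000 counts the log2 fold change of Supt5 was 0.36 ± 0.23 (SE; edgeR adjusted p = 0.668). Dot1l had a log2 fold change of 0.052 ± 0.27 (SE; edgeR adjusted p = 0.974).

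In the gene lists edgeR called no gene, and the signs of the log2 fold changes are given as counts. Of 13 tested genes of the medium spiny neuron list with a flank peak, 12 had a negative log2 fold change in ELS GFP against Standard GFP. Their median was −0.56, against −0.013 over all genes. Of 22 synaptic genes with a flank peak, 16 had a negative one, with a median of −0.11. The 9 astrocyte markers, which have no flank peak, were all negative too, with a median of −0.64. Of 14 myelin genes 13 were negative, with a median of −0.51, and of 11 microglia markers 10, with a median of −0.56. Of 10 endothelial and pericyte markers 3 were negative, with a median of 0.17. Summed over the 11 microglia markers, ELS GFP libraries had 753.7 to 1915 CPM and Standard GFP libraries 693.3 to 4054 CPM. The part of these cells in the values of the neuron markers was not tested. Proteasome genes with a flank peak had a median of 0.13 over 24, and respiratory chain genes 0.0049 over 17. Ribosomal protein genes with a flank peak had a median of 0.18 over 13, and Rpl18 among them had −1.82 ± 0.50 (SE; edgeR adjusted p = 0.12, DESeq2 adjusted p = 0.0369).

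In Standard Dot1l overexpression against Standard GFP, edgeR called 0 of 6681 flank genes, against a background of 0%. At an unadjusted p under 0.05, 473 were lower (7.08%, against a background of 6.28%) and 277 higher (4.15%, against 4.59%). DESeq2 called 17 flank genes (0.259%, against 0.311%), and without the 4 libraries under 1000000 counts edgeR called 5 (0.0736%, against a background of 0.119% or 18 of 15149 genes). The median log2 fold change was −0.026, against 0.018 over all tested genes. Its sign turned without Standard GFP replicate 6, to 0.033, and with no filter on low counts, to 0.0086, and without Standard GFP replicate 1 it was −0.0021. This comparison shares its Standard GFP libraries with the one above. Ddr1, a collagen receptor gene, had 12.7, 15.3 and 21.7 CPM in Standard Dot1l overexpression libraries, against 16.8, 26.2 and 140.2 CPM in Standard GFP libraries. All 8 overexpression libraries lay below the Standard GFP median, the ranges overlapped, and the log2 fold change was −1.39 ± 0.32 (SE; edgeR adjusted p = 0.137, DESeq2 adjusted p = 0.0148). Without Standard GFP replicate 6 it was −0.77. Sec22a, a gene of endoplasmic reticulum transport, had 5.78, 8.8 and 11.9 CPM in Standard Dot1l overexpression libraries, against 6.01, 17.1 and 101.9 CPM in Standard GFP libraries. Its log2 fold change was −1.61 ± 0.37 (SE; edgeR adjusted p = 0.137, DESeq2 adjusted p = 0.0143), and −0.85 without replicate 6. Without the libraries under 1000000 counts it was −1.93 ± 0.35 (SE; edgeR adjusted p = 0.0366).

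Among the flank genes with higher values, Pmvk, a mevalonate pathway kinase gene, had 2.48, 7.46 and 153.2 CPM in Standard Dot1l overexpression libraries, against 1.47, 5.25 and 6.21 CPM in Standard GFP libraries. The log2 fold change of 2.44 ± 0.62 (SE; edgeR adjusted p = 0.137) was 0.58 without Standard Dot1l overexpression replicate 1. Glrx3, a glutaredoxin gene, had 8.15, 13.9 and 51 CPM in Standard Dot1l overexpression libraries, against 1.76, 8.61 and 12 CPM in Standard GFP libraries. Its value of 1.17 ± 0.32 (SE; edgeR adjusted p = 0.145) was 0.75 without that library. Glrx3 had a flank peak in the ELS list alone, of 2074 bp and a fold of 2.34. Of the 13 medium spiny neuron markers with a flank peak, 10 were negative, with a median of −0.19, of 22 synaptic genes with one 18, with a median of −0.23, and all 14 myelin genes were negative, with a median of −0.42.

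In ELS Dot1l knockdown against ELS GFP, edgeR called 0 of 6681 flank genes, against a background of 0%. At an unadjusted p under 0.05, 203 were lower (3.04%, against a background of 3.95%) and 135 higher (2.02%, against 2.23%). DESeq2 called 1 flank gene (0.015%, against 0.0143%). Rrs1 had a DESeq2 adjusted p of 0.0188. The median log2 fold change was 0.015, against 0.0019 over all tested genes. Rrs1 had 0.234, 1.52 and 4.08 CPM in ELS Dot1l knockdown libraries, against 1.35, 4.33 and 94.3 CPM in ELS GFP libraries. All 8 knockdown libraries lay below the ELS GFP median, the ranges overlapped, and the log2 fold change of −2.96 ± 0.70 (SE; edgeR adjusted p = 0.317) was −1.28 without ELS GFP replicate 2. Bdh1, a ketone body enzyme gene, had 4.58, 11.8 and 14 CPM in ELS Dot1l knockdown libraries, against 12.5, 16.3 and 176.9 CPM in ELS GFP libraries. Its log2 fold change of −1.84 ± 0.43 (SE; edgeR adjusted p = 0.317) was −0.80 without the same library.

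Klhl20, a ubiquitin ligase adaptor gene, had 4.5, 8.11 and 95.7 CPM in ELS Dot1l knockdown libraries, against 2.25, 5.86 and 7.87 CPM in ELS GFP libraries. The log2 fold change was 1.67 ± 0.48 (SE; edgeR adjusted p = 0.335), and 0.69 without ELS Dot1l knockdown replicate 7. Pdia5, a protein disulfide isomerase gene, had 3.35, 8.06 and 85.1 CPM in ELS Dot1l knockdown libraries, against 3.11, 5.14 and 7.68 CPM in ELS GFP libraries. Its value of 1.76 ± 0.51 (SE; edgeR adjusted p = 0.335) was 0.89 without that library. For both genes 5 of 8 knockdown libraries lay above the ELS GFP median. Of the 13 medium spiny neuron markers with a flank peak, 3 were negative in knockdown, with a median of 0.13, and all 11 microglia markers were positive, with a median of 0.46. Of 22 synaptic genes with a flank peak 19 were negative, with a median of −0.13, and of 10 endothelial and pericyte markers 9, with a median of −0.19.

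**Figure D5:**
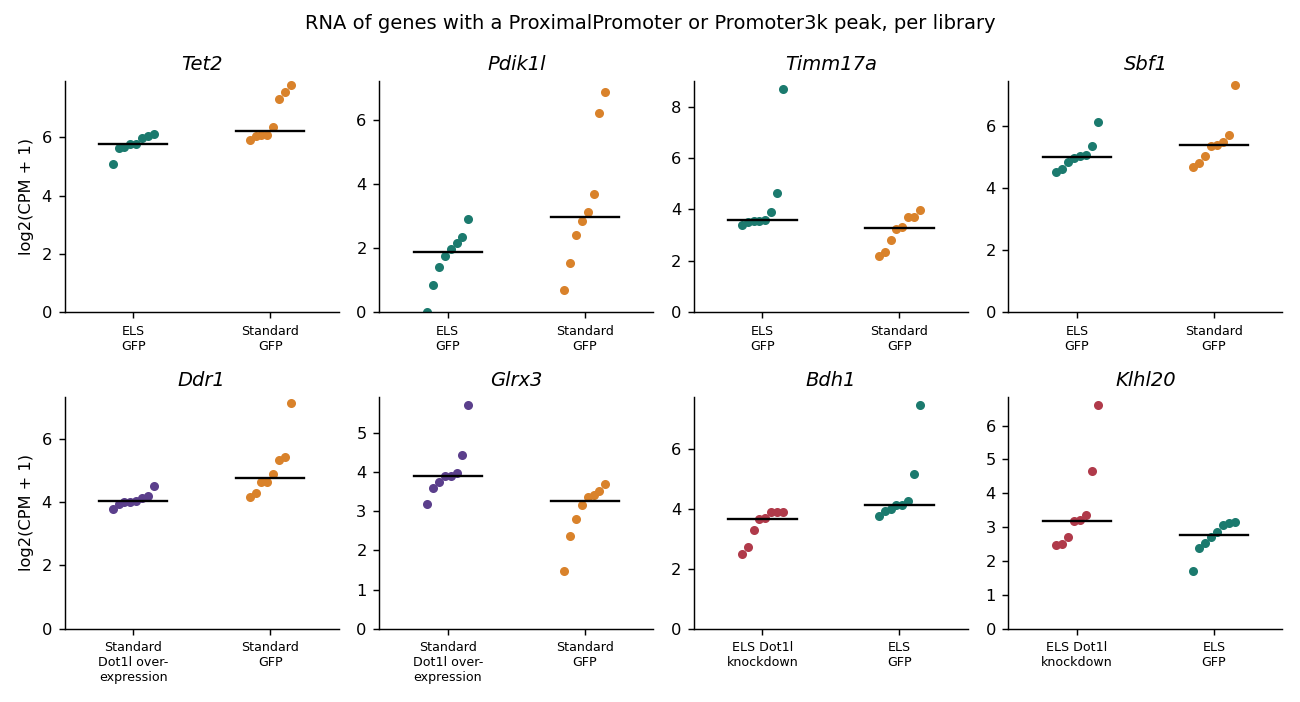
RNA level per library as log2(CPM + 1) (y axis) for 8 genes with a flank peak, with 1 point per library, a bar at the median of 8 libraries and the group named first in each comparison on the left. Single libraries stand far above the rest in Timm17a (404.9 CPM in ELS GFP), Ddr1 (140.2 CPM in Standard GFP) and Klhl20 (95.7 CPM in ELS Dot1l knockdown), and the groups overlap in each gene.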

How the data were processed

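Members and gene lists were chosen with earlier results of these data known. Per the file headers, the authors' 2 peak lists, 1 per rearing condition, carry a fold enrichment (ratio) and a q-value. How libraries were pooled, which caller ran, what the fold is relative to and whether starts count from 0 was not stated. Annotation lines were joined by chromosome, start and end. Distances were checked against the peak centre.

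The deposited counts are whole reads per gene. The submitters' processing notes name FastQC, HISAT2, featureCounts, DESeq2 and mm10. Strand use is unknown, so antisense partners cannot be told apart. edgeR 4.0.16 under R 4.3.3 (TMM, filterByExpr, quasi-likelihood) was run on 32 libraries in 4 groups, with 14016 of 52636 genes kept and 28 residual degrees of freedom. The script was tested on simulated data with a smaller spread between libraries than these data have. That test checked the code and not the power to call genes here. SE values derive from the test. DESeq2 1.42.0 was an alternative. Named peaks had the highest fold or width per class. Named genes had the smallest p-values per direction, carried those peaks or belong to the lists; some genes are not reported here. Promoters came from RefSeq. Only counting error is in the intervals.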

Additional observations from a re-analysis of the deposited data

Results flagged for a closer look

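Among 8 libraries of a group, a single library stood apart from the others in 16 of the 37 gene and group combinations printed above. The rule was a limit on Dixon's ratio, the gap to the nearest library over the range of the group. Chance passes this limit in about 1 in 20 groups of normally distributed values, if the groups were not chosen by their values. Whether CPM are normally distributed here was not tested, so the rate for unchosen groups of these data is unknown. Most of these genes were also chosen for small p-values, so the rate of 1 in 20 does not apply to them. The values are CPM, with the nearest other library of the group after each.

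ELS GFP replicate 2 was highest for Timm17a at 404.9 (next 24), Rrs1 at 94.3 (next 9), Bdh1 at 176.9 (next 34.4) and Safb at 182.1 (next 66.4). ELS GFP replicate 7 was highest for Sbf1 at 68.4 (next 39.8) and Mllt1 at 24.5 (next 17.7). Standard Dot1l overexpression replicate 1 was highest for Pmvk at 153.2 (next 10.9) and Glrx3 at 51 (next 20.8). ELS Dot1l knockdown replicate 7 was highest for Klhl20 at 95.7 (next 24.1) and Pdia5 at 85.1 (next 21.4).

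Standard GFP replicate 6 was highest for Sec22a at 101.9 (next 24.1), Ddr1 at 140.2 (next 42.3), Sbf1 at 156.6 (next 51.1) and Safb at 509.3 (next 181.4). At the low end, Standard GFP replicate 7 had 1.47 for Pmvk (next 4) and Standard GFP replicate 5 had 10.6 for Dot1l (next 30.8). These libraries are the ones without which values are given beside the genes above, except ELS GFP replicate 7 and Standard GFP replicates 5 and 7. The TMM factors of Standard Dot1l overexpression replicate 1 and Standard GFP replicate 6 were 0.5299 and 0.5654.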

How the results depend on the processing

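Of 86 recomputed values, 39 stayed within the limits set for them and 47 moved. With proximal peaks alone there were 1425 ELS and 1650 Standard peaks, with median widths of 436 and 459 bp, median folds of 1.92 and 1.96, overlap shares of 90.7% and 62% and a median RNA level of 0.489 CPM per kb. With 3 kb peaks alone the median widths were 526 and 580 bp, and with Promoter1k peaks kept 503 and 543 bp. At or above the common median fold of 1.94, 7636 ELS and 9328 Standard peaks remained, with median widths of 995 and 1071 bp and overlap shares of 93.8% and 60.7%. At 50% reciprocal overlap the shares were 42.5% and 39%. At a q of at most 0.01 the Standard median width was 594 bp and its median fold 2.01. The cause was not tested.

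DESeq2 called 34, 17 and 1 flank genes in ELS GFP, Standard Dot1l overexpression and ELS Dot1l knockdown against their GFP groups. Without libraries under 1000000 counts edgeR called 1 and 5 flank genes in the ELS GFP and overexpression comparisons, of 7 and 18 genes called in all. The median log2 fold change in ELS GFP was −0.027 with no filter, −0.042 without those libraries, and −0.086 to −0.012 when ELS GFP replicate 2 or Standard GFP replicate 1 or 6 was left out. In overexpression it was −0.046 with RLE factors, −0.04 with DESeq2, 0.0086 with no filter, −0.0075 without shallow libraries and −0.078 to 0.033 when single libraries were left out. In knockdown it was −0.011 with RLE factors, −0.0038 with DESeq2, 0.028 with no filter and 0.022 to 0.044 when single libraries were left out. The left-out libraries were chosen after seeing the data. With the title number as a replicate block edgeR called 0, 0 and 0 flank genes, and the medians were −0.047, −0.012 and −0.0053; nothing in the labels says that these numbers pair the libraries.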
